A study of Mus musculus with 26 samples.

Results

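Mouse chromosome 8 was described through its RNA polymerase II loops and the genes at their ends. A loop was a pair of distant anchors joined by at least 2 HiChIP tags, and a loop gene was a gene whose annotated span lay within 2500 bases of such an anchor. By this rule chromosome 8 had 2470 of the 59194 loops of the WT-labelled list and 9592 of the 168426 loops of the KO-labelled list. Its loop genes numbered 1046, of 19177 loop genes in all. Members were chosen by the tags of the loops and their chromosome, so loop numbers are given as a description. The RNA-seq counts played no part in the rule.

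The study used E14, a mouse embryonic stem cell (ESC) line kept on gelatin in serum with LIF and inhibitors of MEK and GSK3, in a WT genotype and in a Klf4-KO genotype. Both groups used here were labelled as neural progenitor cells (NPC) after 12 days of neural induction. RNA-seq had 2 libraries per genotype. HiChIP, which joins distant DNA fragments held together at polymerase-bound sites, had 2 samples per genotype but 1 deposited loop list each, so loops carry no replicate check. The series holds 26 samples in all, and its design text states biological replicates. Whether the Klf4-KO line was 1 clone is not given in the sources used here.

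RNA polymerase II gathers at active promoters and enhancers, and loops taken from it join promoters with other promoters, with enhancers or with gene bodies that are being transcribed. KLF factors are zinc-finger proteins, and some of them, such as Klf4 and Klf2, belong to the naive pluripotent state. KLF factors bind CACCC-containing and other GC-rich sites. Chromosome 8 carries genes of the pluripotent state (Zfp42, Klf2, Sall1), cadherin genes, both chains of the major type IV collagen, and neural genes such as Tubb3, Gnao1 and Sox1.

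Promoters of genes at strong loops of the chromosome, and promoters touching anchors of 1 list alone, are printed first. Each is the stretch of 250 bases before the annotated start, read 5′ to 3′ on the gene's strand from RefSeq (GRCm38.p6). Capitals mark matches to CACCC and GGGCGG on both strands (GGGTG and CCGCCC on the other strand). Vac14 (chr8:110618317-110618566, plus strand) and Mtss1l (chr8:110721226-110721475, plus strand) are the genes at the strongest KO-labelled loop. The Mtss1l stretch lies inside an anchor of that loop. The Vac14 stretch lies outside both of its anchors, which touch the Vac14 gene body. For Adrb3 and Eif4ebp1, at the strongest WT-labelled loop, no RefSeq promoter was available. Klf2 (chr8:72318812-72319061, plus strand) lies at a strong WT-labelled loop. Zfp42 (chr8:43307010-43307259, minus strand) lay inside an anchor of the WT-labelled list alone. Bst2 (chr8:71537473-71537722, minus strand) and Gnao1 (chr8:93810588-93810837, plus strand) lay inside anchors of the KO-labelled list alone. The last 4 were chosen after their values were seen.
Vac14: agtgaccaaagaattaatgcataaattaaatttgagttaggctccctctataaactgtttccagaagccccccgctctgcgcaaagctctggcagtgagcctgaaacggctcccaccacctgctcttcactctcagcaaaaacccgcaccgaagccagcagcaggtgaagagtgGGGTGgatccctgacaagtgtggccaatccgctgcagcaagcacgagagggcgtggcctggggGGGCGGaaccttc
Mtss1l: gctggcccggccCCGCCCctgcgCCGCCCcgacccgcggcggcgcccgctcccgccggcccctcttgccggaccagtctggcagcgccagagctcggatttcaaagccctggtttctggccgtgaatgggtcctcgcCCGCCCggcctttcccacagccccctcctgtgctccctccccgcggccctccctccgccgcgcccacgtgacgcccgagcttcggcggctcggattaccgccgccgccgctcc
Klf2: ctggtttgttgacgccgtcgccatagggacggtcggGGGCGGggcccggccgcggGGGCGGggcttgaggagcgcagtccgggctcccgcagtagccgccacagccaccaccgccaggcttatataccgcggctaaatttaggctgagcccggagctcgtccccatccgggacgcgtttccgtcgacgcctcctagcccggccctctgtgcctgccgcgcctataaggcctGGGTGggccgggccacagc
Zfp42: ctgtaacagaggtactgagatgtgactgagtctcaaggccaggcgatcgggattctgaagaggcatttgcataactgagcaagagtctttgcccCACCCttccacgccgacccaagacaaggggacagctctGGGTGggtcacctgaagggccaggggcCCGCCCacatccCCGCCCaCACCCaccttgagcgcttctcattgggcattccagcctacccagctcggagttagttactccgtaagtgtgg
Bst2: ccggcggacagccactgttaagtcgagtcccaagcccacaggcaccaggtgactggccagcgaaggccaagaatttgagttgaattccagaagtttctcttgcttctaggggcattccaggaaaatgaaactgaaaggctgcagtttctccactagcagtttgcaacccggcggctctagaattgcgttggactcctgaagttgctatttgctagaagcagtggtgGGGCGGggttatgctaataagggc
Gnao1: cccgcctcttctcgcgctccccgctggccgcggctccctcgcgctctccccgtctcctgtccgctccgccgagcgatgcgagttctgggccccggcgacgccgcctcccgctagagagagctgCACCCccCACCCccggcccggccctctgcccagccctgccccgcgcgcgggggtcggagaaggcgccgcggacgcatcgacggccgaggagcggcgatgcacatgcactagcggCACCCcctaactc

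The printed Zfp42 stretch held 3 matches to CACCC and 2 to GGGCGG, and the Klf2 stretch held 1 and 2. The Gnao1 stretch held 3 CACCC matches and no GGGCGG match, and the Bst2 stretch held 1 GGGCGG match alone. Such matches are frequent: in windows of 300 bases (250 before to 50 after the start), CACCC was found in 57.5% and GGGCGG in 35.7% of 32851 promoters. Chromosome 8 has 1442 promoters in the table, and the 1062 whose gene has a row in the count files were compared with the anchors. Of the 655 that touched an anchor of either list, 64.6% held CACCC and 64.6% held GGGCGG. Of the 407 of them that touched none, 50.9% held CACCC and 16.2% held GGGCGG. The median GC content moved with these shares, at 61.3% and 49.0%, and its part in them was not tested. TATAAA, searched on both strands, went the other way, at 6.26% of the 655 and 22.1% of the 407.

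Genotype labels were checked first. Klf4 had no count in either WT-labelled library, against 2571 and 2538 counts under the KO label, at least 752-fold higher against a floor of 3 counts per library. This is opposite to the labels, so samples are named by label throughout and each direction is KO-labelled over WT-labelled. In HiChIP, Klf4 had 2 loops with 34 tags in the WT-labelled list and 6 loops with 16 tags in the KO-labelled one. Whether the RNA-seq and HiChIP labels name the same cells was not tested. The labelled cell type was checked too. All 10 pluripotency markers read at least 20 CPM (each gene's share of library counts, scaled by TMM, the trimmed mean of M values) in each library, with sums of 8652 and 8655 CPM against 4941 and 5020 CPM. Of these, 8 were called lower and 2 (Klf2 and Utf1) higher. Of 10 neural progenitor markers, 6 were under 1 CPM in the WT-labelled and 3 in the KO-labelled libraries, and Fabp7, Hes5 and Emx2 had no count under the WT label. The 10 summed to 104.2 and 100.7 against 137.5 and 146.3 CPM, with 7 higher and 1 (Ncam1) lower. Mesoderm and fibroblast markers summed to 8.23 and 6.55 CPM against 432 and 420 CPM, and 7 of 7 were higher. Endoderm markers summed to 2.11 and 2.06 against 43.9 and 43.7 CPM, with 5 of 6 higher. Neuron markers summed to 513 and 497 against 214 and 210 CPM, with 4 of 7 higher and 2 lower. These marker sums move with every expression difference below, and their part in it was not tested. In bulk samples, fewer cells of a type and less RNA per cell cannot be told apart. Libraries held 29835774 to 37703866 gene counts.

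Chromosome 8 took a larger share of the KO-labelled loop list. It held 4.17% of the WT-labelled loops (95% exact binomial interval 4.01% to 4.34%, counting error only) and 5.70% of the KO-labelled ones (5.59% to 5.81%). The ratio of the shares, 1.37, ranked 3 of 19 autosomes, behind chromosome 12 (1.51) and chromosome 14. In tags the shares were 4.02% and 5.69%, a ratio of 1.42 and rank 2. Anchors were called separately in each list, and they covered 4048 kb of chromosome 8 in the WT-labelled list and 8676 kb in the KO-labelled one. Anchors numbered 998 and 2421, a ratio of 2.43 that ranked 4 of 19.

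Most loops were weak and short. The median loop had 3 tags in both lists and spanned 96.1 kb (WT-labelled) or 87.8 kb (KO-labelled). Just inside the threshold, 43.7% and 49.5% of the loops had 2 tags. Just outside it, 3863 and 18639 loops had 1 tag, with longer median spans of 361 kb and 342 kb. Both ends touched a promoter in 19.4% of the WT-labelled list and 11.1% of the KO-labelled list, and neither end did in 41.7% and 54.1%. Loops of the other chromosomes were similar, with both ends in 18.8% and 12.4% and neither in 37.9% and 50.5%. Their median spans were 107 kb and 92.4 kb, and 41.6% and 49.0% of them had 2 tags.

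Few of the chromosome's loops appeared in both lists. Of the WT-labelled loops 677 (27.4%, interval 25.7% to 29.2%) had both anchors overlapping a KO-labelled loop by at least 1 base, and 704 of the KO-labelled ones (7.34%, interval 6.83% to 7.88%) overlapped the other list. The other autosomes ranged from 14.8% to 33.6% and from 5.65% to 11.5%. Shared loops were shorter, with median spans of 54.5 kb against 126 kb for WT-labelled loops that were not shared. Among 664 loops paired one to one, the median ratio of tag shares was 0.42, the ratio of a pair with equal tags in both lists. By counting intervals 137 pairs had a smaller tag share in the KO-labelled list and 4 a larger one. These counts cannot be set against each other, because each pair needed at least 2 tags in both lists. With that floor, a pair of 2 WT-labelled and 19 KO-labelled tags still had an interval from 0.955. The KO-labelled list spread its tags over more loops, with a mean of 3.90 tags per loop against 5.25.

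The strongest named loop of the WT-labelled list joined Adrb3, the beta-3 adrenergic receptor of fat cells, to Eif4ebp1, a repressor of cap-dependent translation. Its anchors lay at 27231516 to 27245792 and 27248596 to 27265232 (mm10), were 14.3 kb and 16.6 kb wide, and shared 238 tags. It had no KO-labelled partner. Loops 2, 3 and 5 of the WT-labelled list and loops 2 and 3 of the KO-labelled list lay in a gene-poor stretch between 19.7 and 20.6 Mb. That stretch holds pseudogenes and gene models such as Gm10060, Gm21092, 6820431F20Rik and 2610005L07Rik. Copies of near-identical sequence can share reads there, so these loops are uncertain. None of the 4 genes was called different in RNA-seq, where 73.1% of all genes tested were. With library size alone as the scaling, 6820431F20Rik (0.29) and 2610005L07Rik (0.23) were called higher.

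The fourth WT-labelled loop joined Klf2, a KLF factor of the naive state, and the pseudogene Gm10282 to Eps15l1, an endocytosis adaptor. It carried 113 tags in the WT-labelled list and 3 in the KO-labelled one, a share ratio of 0.0111 (interval 0.00225 to 0.0332). Only the pair between Gabarapl2 with Tmem231 and Adat1, at 76 and 2 tags, had a smaller ratio among pairs with at least 10 tags. The next were at Gpt2 (47 and 3 tags), Sall1 (28 and 2 tags) and Mt1 (27 and 2 tags). The largest ratios were within Nfix (2 and 37 tags, ratio 7.71, interval 1.99 to 66.0), at Slc7a5 (2 and 22 tags), and at Gpt2 again and between Gtpbp3 with Plvap and Bst2 (2 and 19 tags each, with intervals that start at 0.955). Gpt2 thus stood at both extremes, with different loops.

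The strongest KO-labelled loop lay at Vac14, a scaffold of the lipid kinase complex that makes PI(3,5)P2, and Mtss1l, an actin-membrane linker. Its anchors (110669627 to 110680678 and 110682073 to 110728486) shared 192 tags, and the second was 46.4 kb wide. Loops 4 and 5 of that list lay within the same genes. Vac14 was touched by 15 tags in the WT-labelled list and 1121 in the KO-labelled list. Its RNA read 78.1 and 79.4 CPM under the WT label and 60.0 and 58.8 CPM under the KO label. The groups did not overlap, and Vac14 fell by 0.41 ± 0.053 (log2, SE) while its loop tags were higher (edgeR quasi-likelihood test, adjusted p = 2.21e-07). Mtss1l had 16.7 and 16.7 against 25.4 and 23.2 CPM and rose by 0.54 ± 0.099 (edgeR adjusted p = 3.51e-05).

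**Figure D1:**
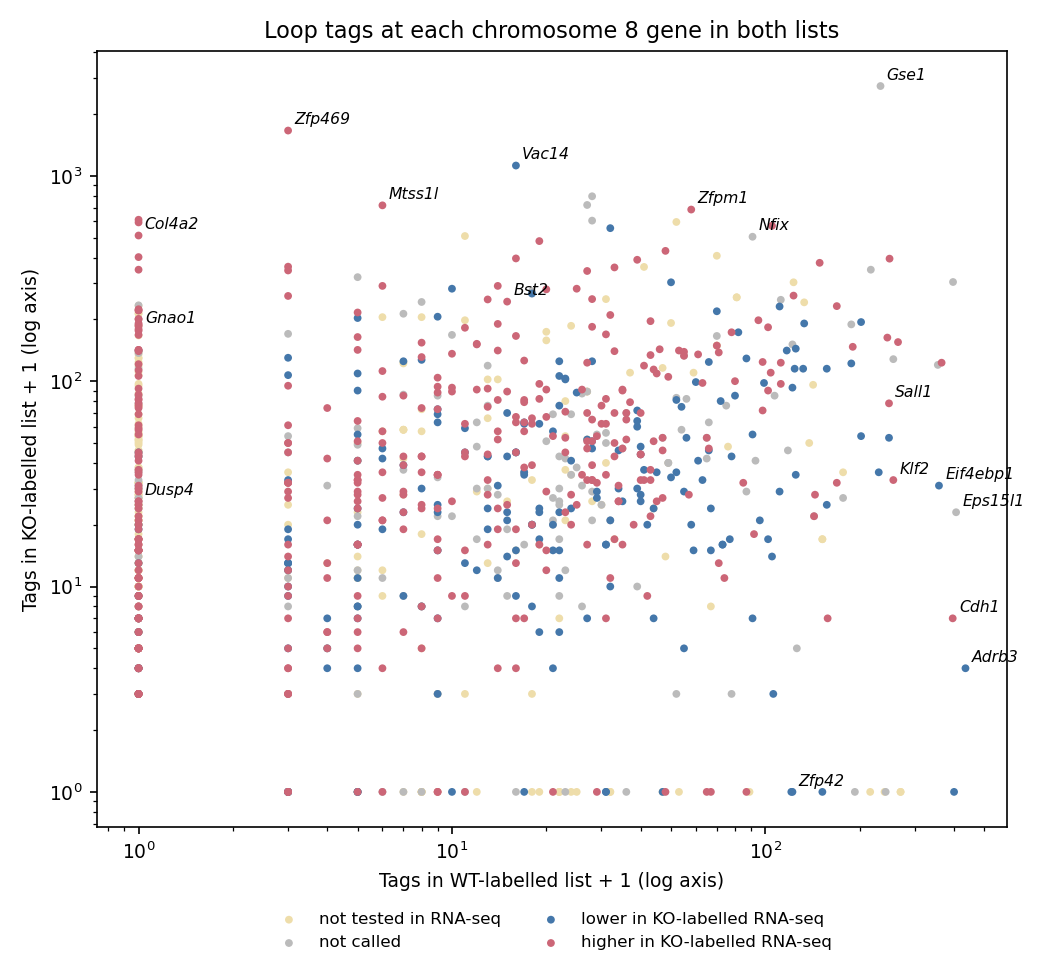
Each point is a chromosome 8 loop gene, placed by its summed loop tags plus 1 in the WT-labelled list (x, log axis) and in the KO-labelled list (y, log axis), and coloured by its RNA-seq call. Gse1, Zfp469 and Vac14 stand at the top with 2735, 1660 and 1121 KO-labelled tags, and Adrb3 and Cdh1 stand at the lower right with 3 and 6.

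Along the chromosome the lists differed most in loop number in the last bin and the first. In 20 Mb bins from the first to the last, the WT-labelled list had 234, 277, 107, 525, 519, 528 and 280 loops. The KO-labelled list had 1448, 525, 139, 1241, 1550, 1637 and 3052. Loops in the last bin, which runs from 120 Mb to the chromosome's end, were 10.9-fold more numerous in the KO-labelled list, and those between 40 and 60 Mb 1.30-fold. Relative to all tags of each list, the tag share was 4.06 times as high in the last bin and 1.81 times in the first. It was lower between 20 and 40 Mb (0.43) and between 40 and 60 Mb (0.25), and it ranged from 0.81 to 1.09 in the other 3 bins.

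The window between 120 and 121 Mb was the densest of the KO-labelled list, with 948 loops and 3878 tags there against 44 loops and 236 tags in the WT-labelled list. Anchors covered 103 kb of it in the WT-labelled list and 526 kb in the KO-labelled one. Gse1, a subunit of a histone deacetylase co-repressor complex, spans much of it and went from 232 to 2735 tags. Its RNA read 60.3 and 57.3 CPM against 53.4 and 55.1 CPM and was not called (log2 change -0.12 ± 0.059, edgeR adjusted p = 0.075). Gins2, a replication factor, overlaps Gse1, and the strand setting is unknown, so reads from the stretch they share may not be told apart. The same limit holds for other named genes with an overlapping neighbour, such as Sf3b3 (Cog4), Adgre5 (Ddx39) and Rbl2 (Aktip). Another dense window, between 122 and 123 Mb, had 59 WT-labelled and 584 KO-labelled loops and holds Zfp469 and Zfpm1. Zfp469, a zinc-finger gene tied to collagen and the cornea, went from 2 to 1660 tags. Its RNA stayed scarce, with 1 and 1 counts against 14 and 36, a count ratio of 22.4 (interval 5.88 to 190). That call was lost without KO-labelled replicate 2 (edgeR adjusted p = 0.0615). Zfpm1, the GATA cofactor FOG1, went from 57 to 684 tags and its RNA rose from 7.15 and 5.24 to 17.5 and 17.1 CPM. Zfp469 and Zfpm1 were chosen after their values were seen.

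**Figure D2:**
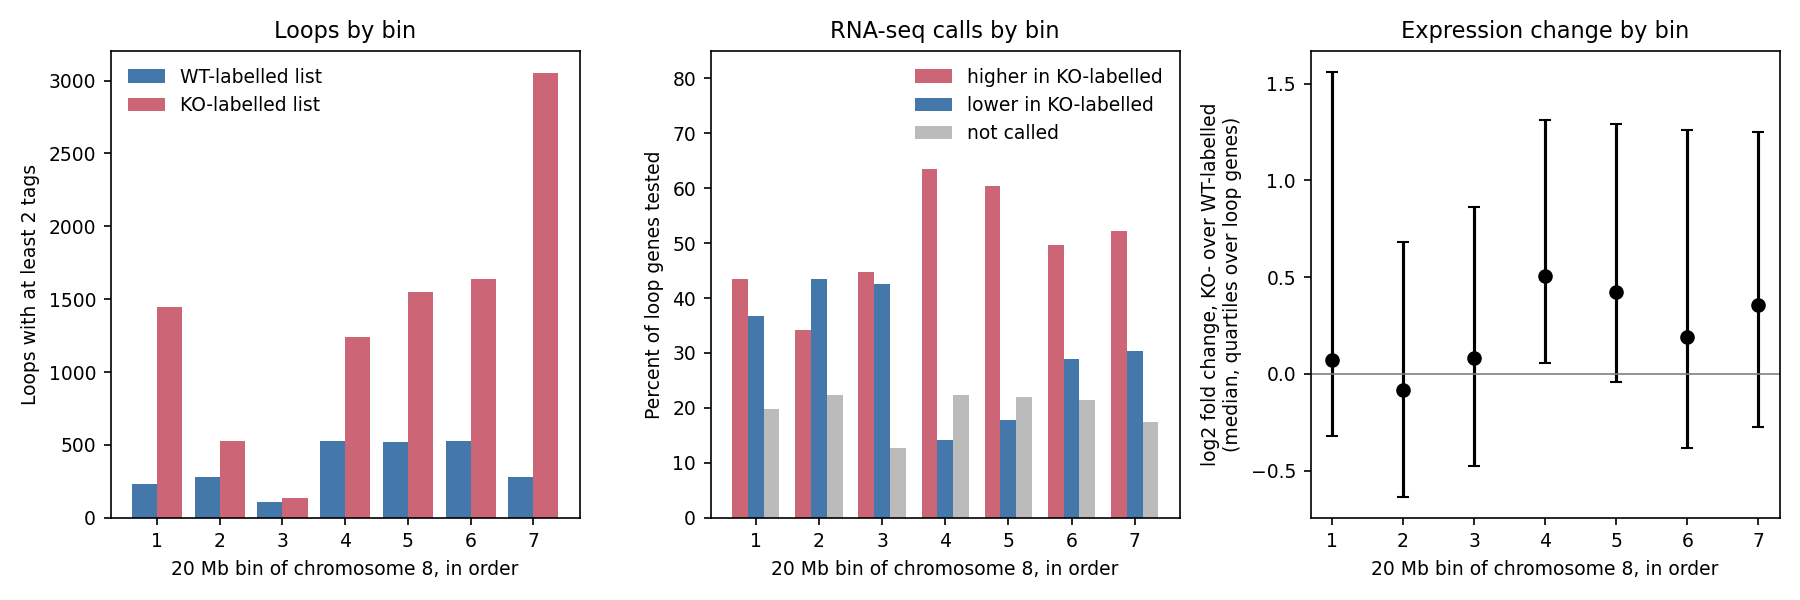
Left, loops with at least 2 tags in each 20 Mb bin of chromosome 8 for both lists; middle, percent of tested loop genes called higher, lower or not called in KO-labelled RNA-seq; right, the median log2 fold change over loop genes with bars from the lower to the upper quartile. Bin 7 has the most KO-labelled loops (3052), and bins 4 and 5 have the highest shares of genes called higher (63.5% and 60.3%).

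Transcripts of chromosome 8 took more of the KO-labelled libraries. They made up 4.46% and 4.44% of gene counts under the WT label and 5.44% and 5.43% under the KO label. The groups did not overlap, and the difference was 0.99 percentage points (two-sided exact permutation p = 0.333, the smallest that 2 libraries against 2 allow). The ratio, 1.22, was the highest of 19 autosomes, and chromosome 14 followed with 1.10. DNA copy number was not analysed here. Loop genes made up 4.16% and 4.15% against 5.14% and 5.13%. Without the 5 genes of the chromosome with the most counts the difference was 0.80 points.

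Of the 1046 loop genes, 113 had no count in any library, 172 had too few for the filter on low counts, and 761 were tested. At an adjusted p below 0.05 (edgeR), 397 of those tested (52.2%) were called higher under the KO label and 207 (27.2%) were called lower. Over all 17273 genes tested, 73.1% were called, 37.2% as higher and 35.8% as lower. The groups were apart for 684 of the loop genes (89.9%), against 86.3% over all genes. Their median log2 fold change was 0.33 (quartiles -0.28 and 1.26), against 0.026 over all genes and -0.026 over loop genes of the other chromosomes. The other autosomes' medians ran from -0.17 (chromosome 11) to 0.19 (chromosome 14), and chromosome 8 had the highest median and the highest share called higher. Scaling by library size alone raised the median of all genes by 0.21 and that of the chromosome 8 loop genes to 0.54. It called 463 higher and 149 lower, or 75.7% of calls higher in place of 65.7%. Chromosome 8 genes without a loop had a median of 0.44 (94 tested, 39 higher and 19 lower).

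**Figure D3:**
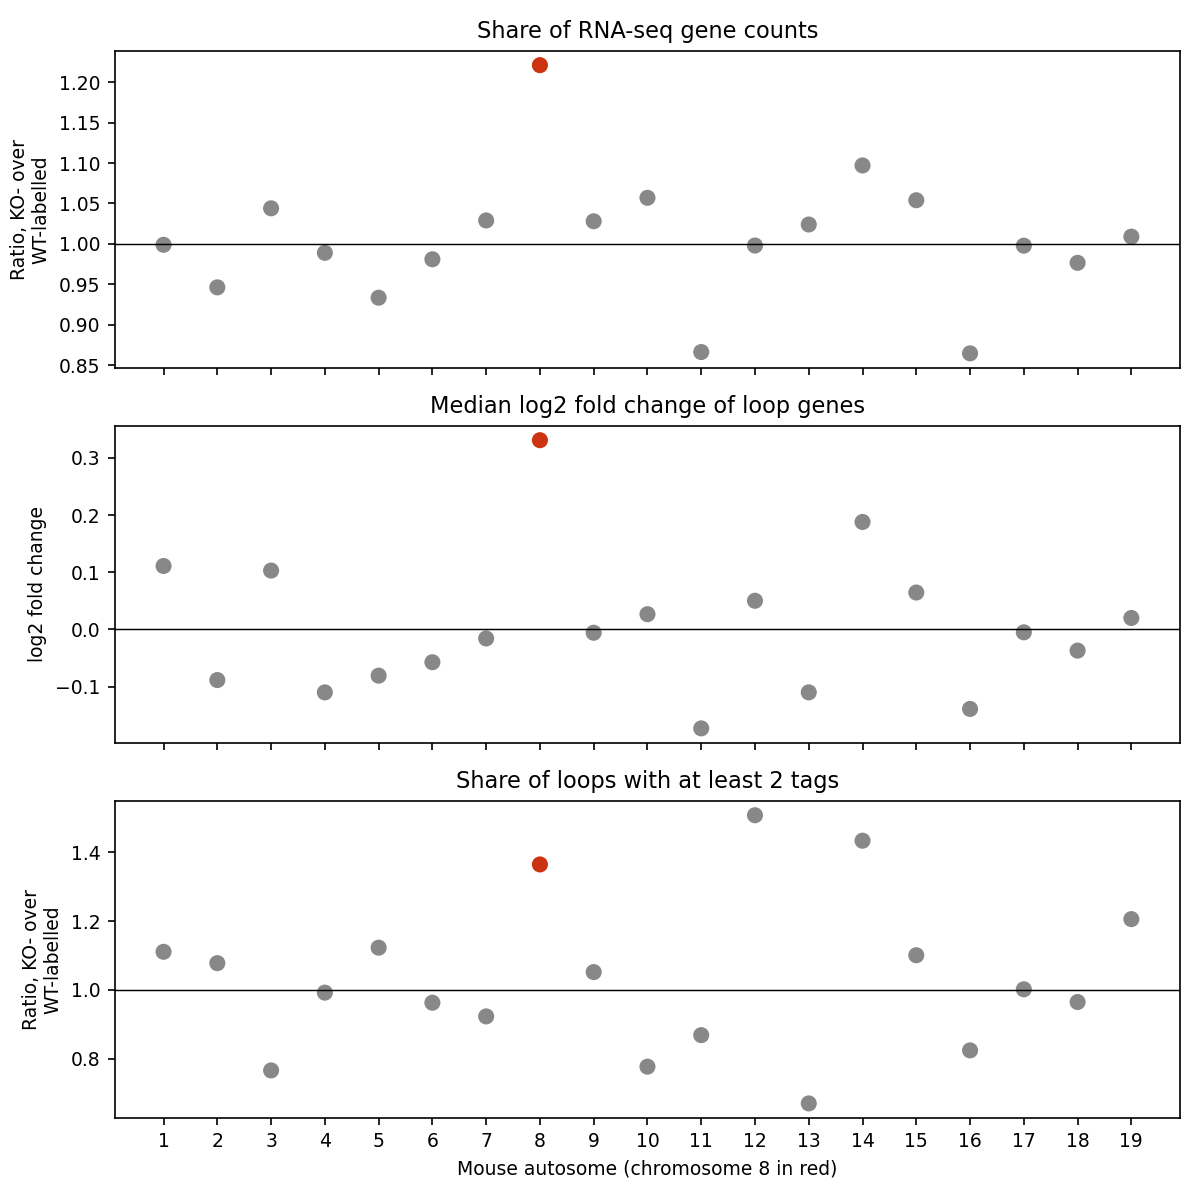
For each mouse autosome (x): top, the chromosome's share of RNA-seq gene counts as a ratio of KO-labelled to WT-labelled means; middle, the median log2 fold change of its loop genes; bottom, the ratio of its shares of the loop lists. Chromosome 8 (red) is highest in the upper panels at 1.22 and 0.33 and ranks 3 in the lower one at 1.37.

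By position, the bins with the highest expression change were not those with the highest tag-share ratio. The median log2 fold change was highest between 60 and 80 Mb (0.51, with 99 of 156 genes higher and 22 lower) and between 80 and 100 Mb (0.42, with 88 of 146 higher and 26 lower). In the first bin, where the KO-labelled tag share was raised, it was 0.070 (33 of 76 higher and 28 lower). In the last bin it was 0.36 (48 of 92 higher and 28 lower). Between 20 and 40 Mb it was -0.08. With library size alone the medians from the first bin to the last were 0.28, 0.13, 0.29, 0.72, 0.63, 0.40 and 0.57, and the first bin had 39 genes higher and 18 lower. Of 122 bins of the other autosomes with at least 20 genes, 5 had a higher median than the bin at 60 Mb. Without the bins at 60 and 80 Mb the chromosome's median was 0.10. The share of gene counts from the bin at 60 Mb went from 0.799% and 0.798% to 1.24% and 1.24%.

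Genes at loops of the KO-labelled list alone were mostly higher. Of the 153 tested, 105 were higher and 15 lower, with a median of 1.16, and on other chromosomes such genes had a median of 0.92. The 565 genes at loops of both lists had a median of 0.18 (278 higher, 177 lower; -0.13 on other chromosomes). The 43 at loops of the WT-labelled list alone had a median of -0.08 (14 higher, 15 lower; -0.39 on other chromosomes). With promoters in place of whole genes, the 104 tested genes whose promoter touched an anchor of the KO-labelled list alone had a median of 1.24, with 81 higher and 10 lower. The 360 whose promoter touched anchors of both lists had a median of 0.18. The 19 whose promoter touched the WT-labelled list alone had a median of 0.21 (9 higher, 5 lower), opposite in sign to the whole-gene value. The 278 loop genes with no listed promoter touching an anchor also had a median of 0.18 (124 higher, 81 lower). Across 451 genes with at least 5 tags in each list, the tag-share ratio and the fold change had a Spearman coefficient of 0.29 and a Pearson coefficient of 0.26. Neighbouring genes share anchors in that comparison, and genes are not independent replicates.

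Early embryo and pluripotency genes went both ways: of 12 tested at loops, 7 were higher, 4 lower and 1 not called, with a median of 0.49. For this group and those that follow, the background was 37.2% higher and 35.8% lower over all genes tested. Over tested chromosome 8 loop genes it was 52.2% and 27.2%, near the 58.3% and 33.3% of this group. The gene groups were chosen with earlier results of these data known. Zfp42 (REX1), a zinc-finger marker of the naive state, had 855 and 842 CPM under the WT label and 410 and 415 CPM under the KO label. It fell by 1.04 ± 0.025 (log2, SE; edgeR adjusted p = 1.65e-21), and its loop tags went from 121 to 0. Nanos3, a germ-cell RNA-binding protein, went from 151 to 0 tags. Its RNA was low, at 2.62 and 4.30 against 0.904 and 2.06 CPM, and its fall of 1.21 ± 0.36 was lost without KO-labelled replicate 1 (-0.73, edgeR adjusted p = 0.0709). Triml1 and Triml2, genes of the early embryo, were modestly lower, at -0.27 each. With library size alone these calls were lost, which left 2 genes lower and 7 higher.

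At 3 other genes of this group the loop tags were fewer in the KO-labelled list while the RNA was higher. Klf2 went from 255 to 32 tags, while its RNA went from 337 and 319 to 457 and 474 CPM and rose by 0.50 ± 0.031. Cdh1, which encodes E-cadherin, went from 395 to 6 tags, while its RNA went from 472 and 468 to 663 and 639 CPM and rose by 0.47 ± 0.027. Sall1, a zinc-finger partner of the pluripotency network, went from 247 to 77 tags, while its RNA went from 74.0 and 77.9 to 349 and 329 CPM and rose by 2.16 ± 0.039. In each the KO-labelled libraries stood above both WT-labelled ones (edgeR adjusted p = 1.55e-13, 3.92e-14 and 3.46e-24). Zfp703 and Dand5, an inhibitor of Nodal signalling, had the largest rises of the group, at 3.02 and 2.95.

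Adhesion and matrix genes were nearly all higher, with 18 of 20 tested called higher and a median of 1.66. Cdh11, a mesenchymal cadherin, went from 0.0285 and 0.145 to 6.59 and 7.73 CPM and rose by 6.42 ± 0.42. Mmp2, a gelatinase, went from 3.73 and 4.73 to 92.7 and 87.8 CPM and rose by 4.43 ± 0.091. The adjacent collagen genes Col4a1 and Col4a2, chains of basement membrane, had no tag in the WT-labelled list and 401 and 511 in the KO-labelled one. Col4a1 went from 9.86 and 12.5 to 66.0 and 63.2 CPM, and Col4a2 from 4.93 and 5.64 to 48.2 and 50.1 CPM, rises of 2.54 and 3.23. Both libraries of each label lay close together, and the spans of this pair overlap slightly. Itgb1, the beta-1 integrin, rose by 2.48 ± 0.040 to 299 and 295 CPM with 10 tags, and Nrp1, a semaphorin and VEGF receptor, rose by 2.36 ± 0.38. The collagen genes, Itgb1 and Nrp1 were chosen after their values were seen. Tenm3, a teneurin, was the 1 member called lower (96.5 and 94.0 against 30.0 and 27.4 CPM), and Pard6a was not called.

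Developmental transcription factors at loops were higher in 20 of 24 tested, with a median of 1.51. Irx3, an Iroquois homeobox factor, went from 0.0285 and 0.217 to 7.29 and 7.75 CPM and rose by 6.02 ± 0.41, with 0 and 4 tags. Irf2, an interferon regulatory factor, had no count under the WT label and 68 and 48 counts under the KO label, at least 17.1-fold higher (3 counts per library as floor). Cbfb, the RUNX partner, was the 1 factor called lower, at -0.12 ± 0.049. It did not pass in DESeq2, or without either WT-labelled library or KO-labelled replicate 1 (adjusted p from 0.0622 to 0.302), and library size alone turned it to 0.09. Nfix, despite 90 and 504 tags, read under 1 CPM in each library. Sox1, an early neural factor in none of the lists, went from 3.02 and 1.59 to 13.0 and 15.3 CPM, a rise of 2.58 ± 0.21, with 25 and 90 tags. It was chosen after its values were seen.

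Neural genes were higher in 12 of 15 tested, with a median of 1.94, and 2 were lower. Tubb3, neuronal beta-tubulin, went from 140 and 142 to 22.2 and 20.3 CPM and fell by 2.73 ± 0.057, with 2 and 0 tags. Gnao1, a G protein subunit of neurons, had 0 tags in the WT-labelled and 178 in the KO-labelled list. Its RNA went from 0.228 and 0.325 to 19.3 and 19.7 CPM, a rise of 6.15 ± 0.22 (edgeR adjusted p = 4.70e-18). Rasd2, a small G protein of striatum, rose by 3.11 ± 0.25, and Ndrg4 fell by 0.92 ± 0.11. Kcnk1, a potassium channel, is outside this group and went from 1.31 and 0.759 to 39.0 and 44.4 CPM.

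Of 21 signalling genes tested, 13 were higher (61.9%) and 6 lower (28.6%), with a median of 0.68. Fgfr1, not called, changed sign and was called higher with library size alone. Dusp4, a phosphatase of ERK, had 0 and 25 tags and went from 1.45 and 1.30 to 107 and 107 CPM, a rise of 6.26 ± 0.096. Ednra, the endothelin A receptor, had 3 and 0 counts against 31 and 50, a count ratio of 24.2 (interval 7.98 to 120). Eif4ebp1 went from 357 to 30 tags and from 451 and 455 to 177 and 180 CPM, a fall of 1.34 ± 0.030. Its loop partner Adrb3 went from 434 to 3 tags and from 72.3 and 71.6 to 14.6 and 13.5 CPM, a fall of 2.36 ± 0.073. At this locus loops and RNA were both lower, and Gm45470, a noncoding gene that overlaps Adrb3, also fell by 2.40. Vegfc, a lymphatic growth factor, fell by 1.78 ± 0.17.

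DNA replication and cell cycle genes were mostly lower, with 14 of 23 tested called lower, 6 called higher and a median of -0.34. Terf2ip, the telomere protein RAP1, fell by 1.38 ± 0.11 and Gins4, a subunit of the replicative helicase, fell by 1.04 ± 0.053. Gins2, Gins3 and Mcm5, of the same helicase, were also lower (-0.79, -0.83 and -0.48). The Gins2 value carries the limit given above, as reads from the stretch shared with Gse1 may not be told apart. Cul4a, a ubiquitin ligase scaffold, rose by 1.10 ± 0.053 and Rbl2, a pocket protein, rose by 0.94 ± 0.12. With library size alone 11 were lower and 6 higher, and Fanca, Wrn and Cdk10, not called, changed sign.

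Chromatin and transcription genes had a median of 0.14. Of 24 tested, 14 were higher (58.3%) and 7 lower (29.2%), near the shares over chromosome 8 loop genes. Among those lower, Ing1 changed sign with library size alone. Chd9, a chromatin remodeller, rose by 1.92 ± 0.045 (48.7 and 45.9 against 180 and 179 CPM) and Irf2bp2, a co-repressor, rose by 0.92 ± 0.079. Sf3b3, a splicing factor, fell by 0.87 ± 0.029 and Ash2l, a subunit of H3K4 methyltransferases, fell by 0.67 ± 0.027. Of 29 metabolic genes tested, 10 were higher (34.5%) and 11 lower (37.9%), near the shares over all genes, with a median of -0.0091. With library size alone 17 were higher and 11 lower, the median was 0.20, and Prdx2, Mvd, Gcdh and Atp6v0d1 changed sign. Tomm20, a mitochondrial import receptor, rose by 1.35 ± 0.033, and Mt1, a metallothionein, rose by 1.30 ± 0.039 while its tags went from 168 to 31. Lpl, lipoprotein lipase, fell by 2.22 ± 0.076 and Slc25a4, the ADP/ATP carrier, fell by 1.37 ± 0.030.

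The largest changes outside these groups were at genes of varied roles. Bst2 (tetherin), an interferon-induced restriction factor, went from 14 to 243 tags and from 6.24 and 6.40 to 250 and 247 CPM. This rise of 5.30 ± 0.056 had the smallest adjusted p of the named genes (edgeR, 1.20e-28). Slc5a5, the iodide transporter, went from 84 to 31 tags while its RNA rose by 4.98 ± 0.20, from 0.684 and 0.470 to 19.5 and 17.9 CPM. Pdlim3, a muscle actinin-binding protein, rose by 5.36 ± 0.41 and Mfhas1 rose by 5.08 ± 0.28, each with no WT-labelled tag.

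Il34, a ligand of the CSF1 receptor next to Mtss1l, showed the largest fall among the named genes. It went from 11.1 and 12.3 to 0.321 and 0.363 CPM and fell by 5.08 ± 0.26. Its tags went from 110 to 230, but as a share of all tags of each list they were slightly lower in the KO-labelled list. Pkd1l2 fell by 4.11 ± 0.16, from 24.8 ± 0.25 to 1.43 ± 0.33 CPM (SD, n = 2). Gabarapl2, an autophagy protein at the pair with the smallest share ratio, went from 249 and 242 to 39.1 and 36.9 CPM and fell by 2.69 ± 0.044. Its neighbours at that pair, Tmem231 and Adat1, fell by 0.86 and 1.12. Adgre5, Tdrp and Atp11a also fell in RNA, at -1.83, -1.76 and -1.06, and Atp11a had 31 and 555 tags.

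**Figure D4:**
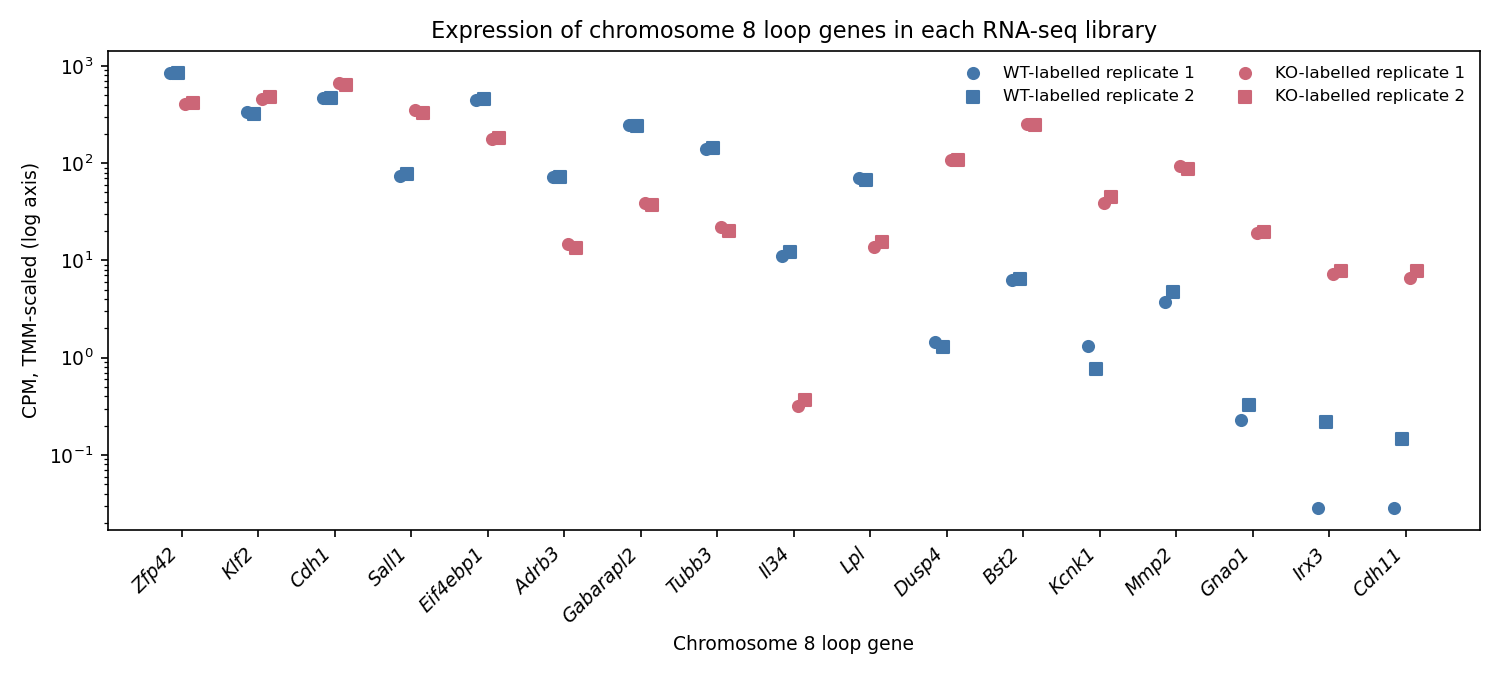
TMM-scaled CPM (y, log axis) of 17 chromosome 8 loop genes in each of the 4 RNA-seq libraries, one point per library. For each gene shown the pair of WT-labelled points does not overlap the KO-labelled pair, and the largest gaps are at Cdh11, Dusp4 and Gnao1.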

How the data were processed

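The deposited RNA-seq values are read counts for each gene symbol, not normalized by the authors. The submitters' processing notes name HISAT2 2.1.0, featureCounts 2.0.3, DESeq2 1.18.1, Bowtie2 2.4.4, MACS2 2.2.7.1, HiC-Pro 2.11.1 and mm10. No annotation, strand setting or loop caller is named (not given in the sources used here). The 5 rows naming no gene stayed out (reads without feature, 6.05% to 8.07%; ambiguous, 4.19% to 4.41%; no unique alignment, 7.06% to 7.69%; unaligned, 1.07% to 1.61%; low quality, 1.03% to 1.51%). Loop lists deposited by the authors give anchors, tag counts and a q-value per loop, 1 list per genotype, so replicates appear pooled. ChIP-seq samples were not analysed here.

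Members and lists were chosen with earlier results of these data known. Genes were filtered (filterByExpr), scaled with TMM and tested with edgeR 4.0.16 (quasi-likelihood, robust, two-sided, 2 libraries per label), with Benjamini-Hochberg adjustment over 17273 genes. DESeq2 1.42.0 was an alternative. The script was tested on simulated data. Standard errors were computed from each fold change with its F value. Share ratios divide tags by all tags of each list. Loops were binned by the midpoint between anchors and genes by their centre. Of the genes tested, 15968 (92.4%) were placed through RefSeq GRCm38.p6, by symbol (15612) or unique synonym (356), and 663 of 1046 loop genes had a promoter in its table. Genes were named by rule: Klf4; in each list the 2 largest called rises and falls; the 10 largest called rises and falls of loop genes with groups apart and at least 5 CPM; the genes with most tags per bin; and genes at the 5 strongest loops per list and the 5 most and least changed shared pairs. Some results are not reported here.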

Additional observations from a re-analysis of the deposited data

How the results depend on the processing

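The number of loop genes called higher stayed within 349 to 463 and called lower within 149 to 208 under every alternative run. Their median of 0.33 became 0.541 with library size alone, 0.394 with no filter beyond 1 count, 0.405 with DESeq2 and 0.10 without the bins at 60 and 80 Mb (chosen after seeing the data). Leaving out 1 library gave medians of 0.337 to 0.379, 369 to 384 higher and 196 to 207 lower, where a lone library is assumed to vary like the other group. Replicate numbers did not pair the libraries (deviation correlation 0.015), and with the replicate block 389 were higher, 207 lower and the median 0.331. Loops at a q-value of at most 0.01 put 3.892% of the WT-labelled list and 5.403% of the KO-labelled list on chromosome 8, with 11.4% and 3.32% shared. All loops gave 4.415% for the WT-labelled list and 6.58% shared for the KO-labelled one, and leaving out the 1 Mb windows of most tags (after seeing the data) gave 3.748% and 4.984%. The difference in count share was 0.998 points without mitochondrial genes, 0.801 without the 5 top genes (after seeing the data) and 0.977 to 0.992 leaving out 1 library. The cause of these moves was not tested. Library size alone turned Gm10282 to 0.139 (called higher, edgeR adjusted p = 0.0404) and Cbfb to 0.0948 (not called). Slc7a5 was lost without WT-labelled replicate 2 (edgeR adjusted p = 0.0674). With 1 pooled list per label and loops of mostly 2 or 3 tags, loop differences have counting error as their only error.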
